A study of Homo sapiens with 24 samples.

Results

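The genes described here are the transcription factor NRF2 (NFE2L2), its inhibitor KEAP1 and 8 antioxidant genes, NQO1, HMOX1, GCLC, GCLM, TXNRD1, TXN, SRXN1 and SOD2. They were chosen by symbol, and 11 of the 60617 rows of the deposited table carried these 10 symbols. Each symbol had 1 row among the 13536 genes tested, and a further row for SOD2 was near 0 and was not tested. The libraries were polyA RNA of SKBR3, a human HER2-positive breast cancer line in which ERBB2, which encodes HER2, is amplified. The 24 libraries fell into 3 groups of 8, namely cells given the biosimilar ApoTras, cells given Herceptin (trastuzumab, an antibody that binds HER2) and untreated control cells. The study set out to judge how alike the antibodies are by the mRNAs of treated cells.

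All groups grew for 7 days in medium with 10% serum, refreshed on days 1 and 4. The labels' protocols give 4 µg/ml beside Herceptin and do not say clearly that the same dose was used for the biosimilar. Both antibodies were added in phosphate-buffered saline, and no group given that buffer alone or another antibody is described. All libraries came from 1 cell line, and nothing says how the 8 replicates of a group were batched, so that the p-values reflect no more than library-to-library spread, part or all of which may be technical.

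NRF2 is a transcription factor that KEAP1 holds in the cytoplasm and hands to a ubiquitin ligase for destruction. Electrophiles and oxidants modify cysteines of KEAP1, newly made NRF2 then escapes, enters the nucleus, pairs with a small MAF protein and binds antioxidant response elements near genes of glutathione synthesis, the thioredoxin system, quinone reduction and heme breakdown. Because control of NRF2 is largely at the level of the protein, its mRNA does not measure its activity, and NRF2 protein, localisation and binding were not measured here. SOD2, which turns superoxide into hydrogen peroxide in mitochondria, is best known as a target of NF-kB.

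Herceptin libraries were on average deeper than those of the biosimilar and control groups, and CPM values are scaled for library totals. These totals ran from 9070186 to 11880165 expected counts with the biosimilar, from 10747837 to 12260086 with Herceptin and from 9116591 to 10759115 in control. Of 13 SKBR3 and luminal epithelial marker genes all were expressed, and their summed level was 17610 to 19430 CPM (counts scaled to a common library total) with the biosimilar, 18420 to 19230 CPM with Herceptin and 16490 to 18250 CPM in control. Of the 10 leukocyte, 10 fibroblast and 7 endothelial markers 2 of each list passed the filter on low counts, and the defining genes PTPRC, VIM and PECAM1 were at or near 0 counts. Among the 6 that passed, CD68 rose by 0.70 on the log2 scale with the biosimilar and 0.80 with Herceptin. Its counts were not whole in 95.8% of the libraries and are uncertain. CSF1R rose by 0.35 and 0.39, ACTA2 by 0.87 and 1.09 and CDH5 by 0.38 and 0.44, COL1A1 fell by 0.35 and 0.34, and ESAM was not called. The summed level of the tested leukocyte markers was 63.6 to 79.7 CPM with the biosimilar, 72.6 to 77.8 CPM with Herceptin and 45.8 to 56.5 CPM in control. For the fibroblast markers it was 9.66 to 12.2, 10.9 to 14.7 and 7.51 to 10.5 CPM, and for the endothelial markers 58.3 to 66.9, 56.8 to 67.6 and 49.4 to 56.5 CPM in the same groups. The part of these genes in the results was not tested. Each lower level below is a level in bulk RNA, in which fewer cells of a kind and less RNA per cell cannot be told apart.

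The core of the antioxidant response element reads TGACNNNGC, or GCNNNGTCA on the other strand. It was searched on both strands in RefSeq windows (GRCh38.p14) from 250 bases before to 50 bases after annotated starts, of which the table held 15 for 9 of the genes and none for HMOX1. The core occurred in 4 of these windows, belonging to GCLM, KEAP1 and TXNRD1. By comparison, 13.3% of all 35116 windows held it. The related letters TGANTCA, bound by AP-1 factors, were in none of the 15 windows and in 7.7% of all windows. Shown are the cores that ended before the start, with 16 bases on each side. They are shown because they belong to genes that moved in different directions with the antibodies. Capitals mark the core, and each sequence is read 5′ to 3′ on the gene's strand.
GCLM: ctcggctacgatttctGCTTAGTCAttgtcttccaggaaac
KEAP1, nearer core: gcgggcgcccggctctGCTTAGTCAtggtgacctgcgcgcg
KEAP1, farther core: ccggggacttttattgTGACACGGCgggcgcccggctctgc
TXNRD1, downstream start: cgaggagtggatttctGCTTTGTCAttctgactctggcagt
TXNRD1, upstream start: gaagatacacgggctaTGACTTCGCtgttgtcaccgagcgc

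The GCLM sequence is chr1:93909440-93909480 on the minus strand, with the core 34 to 26 bases before the start. The KEAP1 sequences are chr19:10502778-10502818 and chr19:10502801-10502841 on the minus strand, with cores 31 to 23 and 54 to 46 bases before the start. The TXNRD1 sequences are chr12:104286914-104286954 and chr12:104215664-104215704 on the plus strand, with cores 102 to 94 and 99 to 91 bases before their starts. The core of GCLM and the nearer core of KEAP1 had the same letters, TGACTAAGC when read in the direction of the motif. A match is a description of letters and not a bound site. Sequence outside these windows was not searched, so that a gene without a match here may have an element elsewhere.

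Against control, both antibodies moved the same 8 of the 10 genes, all by small amounts. NFE2L2, KEAP1 and TXNRD1 rose and NQO1, GCLM, TXN, SRXN1 and SOD2 fell, while GCLC and HMOX1 did not pass the test with either antibody. In this fit the largest changes were those of TXN and NFE2L2. With a covariate for short transcripts, described below, the change of TXN was smaller than those of TXNRD1 and GCLM. Without it, all but 2 genes with the biosimilar and all but 1 with Herceptin moved by under 1.2-fold. The comparisons share the control libraries, so that the second is no independent repeat of the first.

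The test was edgeR's quasi-likelihood F test, with p-values adjusted over all 13536 genes and a threshold of 0.05. It called 3 of the 10 genes higher and 5 lower with the biosimilar, where 48% of all genes were called, 23.4% higher and 24.6% lower. It called 3 higher and 5 lower with Herceptin, where 46.4% of all genes were called, 22.7% higher and 23.8% lower. With the biosimilar the groups did not overlap for 3 genes, TXNRD1 on the higher side and GCLM and SRXN1 on the lower side, beside 14.9% of all genes (7.19% higher and 7.73% lower). With Herceptin they did not overlap for TXNRD1 on the higher side and GCLM on the lower side, beside 17% of all genes (8.95% higher and 8.07% lower). The median size of the log2 fold change was 0.13 over the 10 genes and 0.15 over all genes with the biosimilar, and 0.16 and 0.14 with Herceptin. The signed median was -0.10 over the 10 genes and -0.0025 over all genes with the biosimilar, and -0.07 and -5e-04 with Herceptin.

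**Figure D1:**
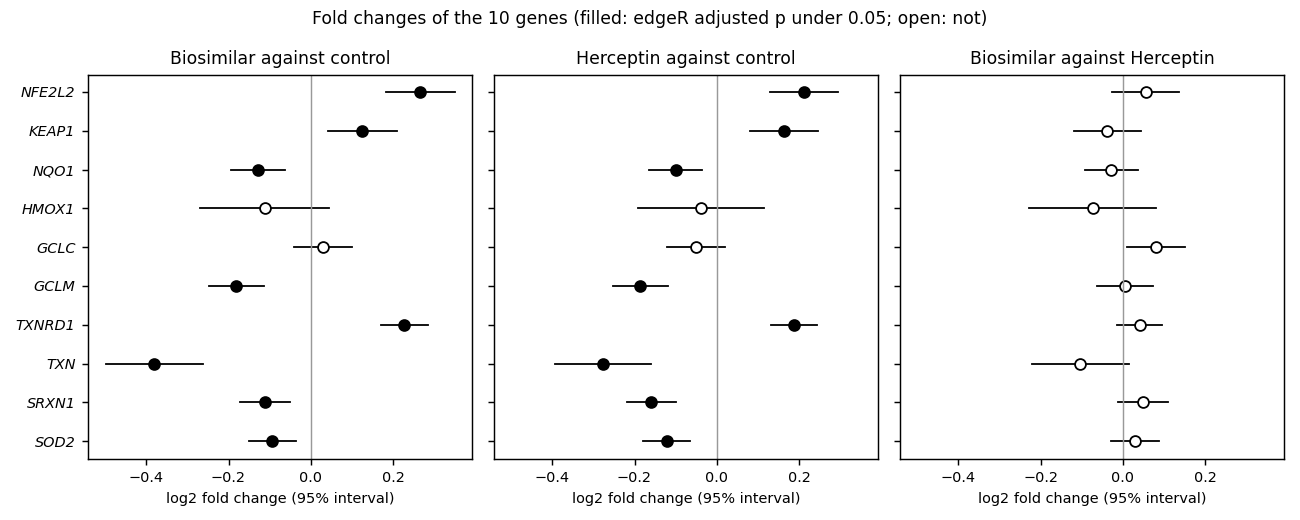
Log2 fold change of each of the 10 genes in the comparisons of the biosimilar with control, Herceptin with control and the biosimilar with Herceptin, with 95% intervals from the edgeR fit of 24 libraries. NFE2L2, KEAP1 and TXNRD1 lie above 0 and NQO1, GCLM, TXN, SRXN1 and SOD2 lie below 0 with either antibody. The differences between the antibodies run from -0.10 (TXN) to 0.08 (GCLC).

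The plot of fold changes also shows the differences between the antibodies for these genes, with their intervals. Between the biosimilar and Herceptin 0 of the 10 genes passed the test, beside 0% of all genes in edgeR. DESeq2 and limma-voom also called 0 of the 10, where DESeq2 called 8 of all 13536 genes, all lower with the biosimilar, and limma-voom 0. At an unadjusted p under 0.05 there was 1 of the 10, GCLC, and 722 of the 13536 genes. No gene of the 10 separated the antibodies without overlap, beside 0.0296% of all genes. A missed threshold does not show that the antibodies act alike, so the interval of each difference is given with the gene.

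Levels per kilobase of transcript put the genes in an order that hardly differed between groups. TXN was the most abundant, at 299 ± 26.7 CPM per kilobase with the biosimilar, 321 ± 23 with Herceptin and 389 ± 33.1 in control (SD, n = 8 each). TXNRD1 was next, at 267 ± 10.3, 260 ± 7.19 and 228 ± 9.27 CPM per kilobase in the same groups. HMOX1 was the least abundant, at 7.29, 7.68 and 7.88 CPM per kilobase. NQO1, SOD2, SRXN1, NFE2L2 and GCLC stood between them in this order in all groups. SRXN1 and SOD2 overlapped with Herceptin and in control, GCLC and KEAP1 overlapped with Herceptin, and TXN and TXNRD1 overlapped with the biosimilar. KEAP1 stood above GCLM with either antibody and below it in control, where their ranges overlapped and 7 of the 8 libraries had this order.

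**Figure D2:**
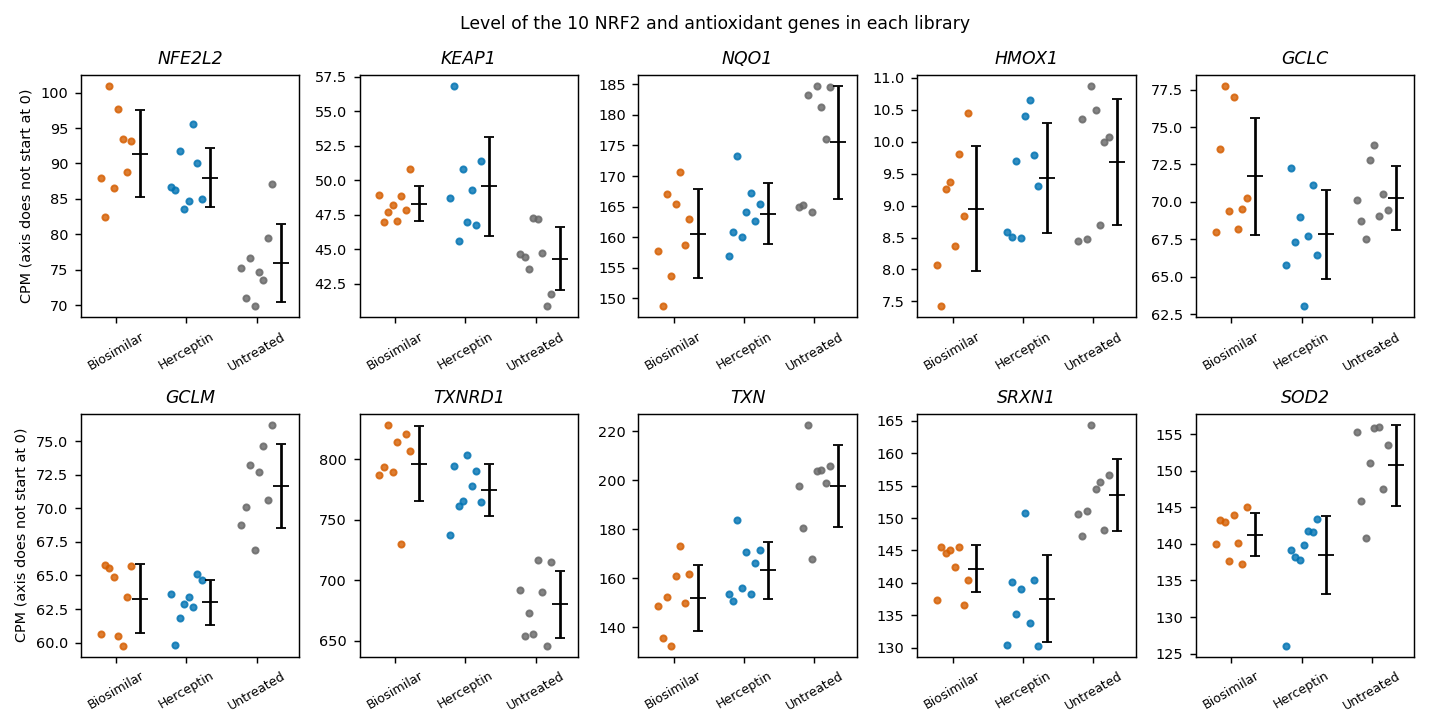
Level of each gene in CPM in every library of the biosimilar, Herceptin and control groups, with the mean and SD of 8 libraries beside the points; the axes do not start at 0. The antibody groups lie together and apart from control for TXNRD1 (higher) and GCLM (lower), and all groups overlap for HMOX1 and GCLC.

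Both regulators were higher with either antibody than in control. NFE2L2 (chromosome 2, 177227595 to 177392697, GRCh38, minus strand) had a lowest, median and highest level of 82.4, 91.0 and 101 CPM with the biosimilar, 83.6, 86.5 and 95.6 CPM with Herceptin and 69.8, 74.9 and 87.1 CPM in control. All 8 libraries of each antibody were above the control median, and 6 biosimilar and 3 Herceptin libraries were above the highest control library. The log2 fold change was 0.27 with the biosimilar (SE 0.0414, adjusted p = 1.07e-06), a 1.202-fold level, and 0.21 with Herceptin (SE 0.0411, adjusted p = 4.52e-05), a 1.16-fold level. The biosimilar minus Herceptin difference was 0.05 on the log2 scale (95% interval -0.03 to 0.14, adjusted p = 0.948).

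KEAP1 (chromosome 19, 10486120 to 10503741, minus strand), the adaptor that delivers NRF2 to the CUL3 ligase and a gene that NRF2 can itself induce, also rose. It had 47.0, 48.0 and 50.8 CPM as lowest, median and highest with the biosimilar, 45.6, 49.0 and 56.9 CPM with Herceptin and 40.9, 44.5 and 47.2 CPM in control. The groups overlapped at their edges. KEAP1 had a log2 fold change of 0.13 with the biosimilar (SE 0.0412, adjusted p = 0.011) and 0.16 with Herceptin (SE 0.0406, adjusted p = 9.89e-04). In the edgeR fit with the short-gene covariate (below) its rise with the biosimilar was not called (0.11, adjusted p = 0.154). The antibodies differed by -0.04 (biosimilar minus Herceptin, 95% interval -0.12 to 0.04, adjusted p = 0.98). The ratio of NFE2L2 to KEAP1 in CPM was 1.89 ± 0.134 with the biosimilar, 1.79 ± 0.171 with Herceptin and 1.72 ± 0.203 in control, and overlapped between all groups. Its log2 difference from control was 0.14 with the biosimilar (exact permutation p = 0.0587, 0.088 adjusted) and 0.05 with Herceptin (exact permutation p = 0.484, also after adjustment).

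The subunits of glutamate-cysteine ligase, the rate-limiting enzyme of glutathione synthesis, did not move alike. GCLM, the modifier subunit (chromosome 1, 93885205 to 93909456, minus strand), fell and separated both antibodies from control. Its lowest, median and highest levels were 59.8, 64.1 and 65.8 CPM with the biosimilar, 59.8, 63.1 and 65.1 CPM with Herceptin and 66.9, 71.7 and 76.2 CPM in control. All 16 antibody-treated libraries were below all 8 control libraries. Its log2 fold change was -0.18 with the biosimilar (SE 0.0334, adjusted p = 1.94e-05) and -0.19 with Herceptin (SE 0.0330, adjusted p = 1.08e-05), and the antibodies differed by 0.0053 (95% interval -0.06 to 0.07, adjusted p = 0.994).

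GCLC, the catalytic subunit (chromosome 6, 53497341 to 53616970, minus strand), had 68.0, 69.9 and 77.8 CPM as lowest, median and highest with the biosimilar, 63.0, 67.5 and 72.3 CPM with Herceptin and 67.5, 69.8 and 73.8 CPM in control. The groups overlapped throughout. The log2 difference from control was 0.03 with the biosimilar (95% interval -0.04 to 0.10, adjusted p = 0.519) and -0.05 with Herceptin (95% interval -0.12 to 0.02, adjusted p = 0.248). GCLC gave the smallest p of the 10 genes between the antibodies, with a difference of 0.08 (95% interval 0.0096 to 0.15), all 8 biosimilar libraries above the Herceptin median and an unadjusted p of 0.0269 in edgeR. It did not pass after adjustment over all genes (adjusted p = 0.893).

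The ratio of GCLM to GCLC in CPM was 0.884 ± 0.0502 with the biosimilar, 0.931 ± 0.0536 with Herceptin and 1.02 ± 0.0625 in control. This ratio is one of 3 partner ratios, compared in 9 tests and chosen after the values were seen. The adjustment over the 9 tests does not cover that choice, so that the p-values of the ratios are no independent support. It was lower with the biosimilar by 0.21 on the log2 scale (exact permutation p = 4.66e-04, 0.0014 adjusted over the 9 tests) and lower with Herceptin by 0.13 (exact permutation p = 0.0073, 0.0164 adjusted). Both antibody groups overlapped with control. The biosimilar minus Herceptin difference was -0.07 (exact permutation p = 0.103, 0.132 adjusted).

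The thioredoxin system split more widely. TXNRD1, the cytosolic thioredoxin reductase that passes electrons from NADPH to thioredoxin (chromosome 12, 104215779 to 104350305, plus strand), had 730, 800 and 829 CPM as lowest, median and highest with the biosimilar, 738, 772 and 803 CPM with Herceptin and 646, 682 and 717 CPM in control. Every antibody-treated library was above every control library. TXNRD1 had a log2 fold change of 0.23 with the biosimilar (SE 0.0276, adjusted p = 7.06e-09), a 1.17-fold level, and 0.19 with Herceptin (SE 0.0276, adjusted p = 4.21e-07), a 1.14-fold level. The antibodies differed by 0.04 (95% interval -0.02 to 0.10, adjusted p = 0.942).

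TXN, thioredoxin itself (chromosome 9, 110243811 to 110256640, minus strand), fell. The lowest, median and highest levels were 132, 151 and 173 CPM with the biosimilar, 151, 161 and 184 CPM with Herceptin and 168, 201 and 223 CPM in control. Of the 8 biosimilar libraries 7 were below the lowest control library, and the Herceptin and control ranges overlapped. Its log2 fold change was -0.38 with the biosimilar (SE 0.0570, adjusted p = 4.73e-06), a 0.768-fold level, and -0.28 with Herceptin (SE 0.0564, adjusted p = 2.41e-04), a 0.825-fold level. The antibodies differed by -0.10 (biosimilar minus Herceptin, 95% interval -0.22 to 0.01, adjusted p = 0.939).

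The ratio of TXNRD1 to TXN was 5.29 ± 0.551 with the biosimilar, 4.77 ± 0.35 with Herceptin and 3.46 ± 0.261 in control, with no overlap between either antibody and control. The difference from control was 0.61 on the log2 scale with the biosimilar and 0.46 with Herceptin, each with an exact permutation p of 1.55e-04, the smallest that the 12870 regroupings allow (6.98e-04 adjusted). The pair was chosen after its genes were seen to move in opposite directions, so that this p is no independent support. Much of the ratio comes from TXN, whose fall was smaller with the short-gene covariate (below). Between the antibodies it was 0.15 (exact permutation p = 0.0503, 0.088 adjusted).

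**Figure D3:**
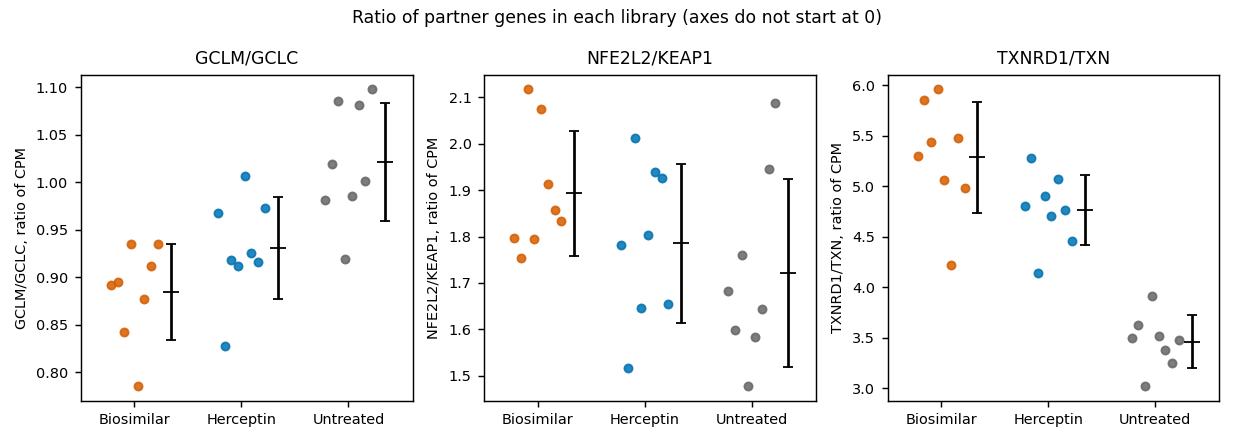
Ratio of CPM of GCLM to GCLC, NFE2L2 to KEAP1 and TXNRD1 to TXN in each library of the biosimilar, Herceptin and control (untreated) groups, with mean and SD of 8 libraries; the axes do not start at 0. TXNRD1 to TXN averages 5.29, 4.77 and 3.46 and separates both antibodies from control, while NFE2L2 to KEAP1 overlaps in all groups.

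SRXN1, the sulfiredoxin that restores over-oxidised peroxiredoxins (chromosome 20, 646615 to 653370, minus strand), fell as TXN did but by less. With the short-gene covariate (below) this order held with the biosimilar (-0.11 against -0.13 for TXN) but turned with Herceptin (-0.16 against -0.12). The lowest, median and highest levels of SRXN1 were 137, 144 and 146 CPM with the biosimilar, 130, 137 and 151 CPM with Herceptin and 147, 153 and 164 CPM in control. All biosimilar libraries and 7 of the 8 Herceptin libraries were below the lowest control library. The log2 fold change was -0.11 with the biosimilar (SE 0.0301, adjusted p = 0.00226) and -0.16 with Herceptin (SE 0.0299, adjusted p = 2.72e-05). The antibodies differed by 0.05 (95% interval -0.01 to 0.11, adjusted p = 0.942).

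NQO1, the quinone reductase often used as a readout of NRF2 (chromosome 16, 69706996 to 69726951, minus strand), was slightly lower with both antibodies. In 58.3% of the libraries its expected counts were fractional, so that part of its reads was shared with similar sequence and its values are uncertain. Its lowest, median and highest levels were 149, 161 and 171 CPM with the biosimilar, 157, 163 and 173 CPM with Herceptin and 164, 179 and 185 CPM in control, and the groups overlapped. The log2 fold change was -0.13 with the biosimilar (SE 0.0321, adjusted p = 9.95e-04) and -0.0995 with Herceptin (SE 0.0318, adjusted p = 0.00932). The antibodies differed by -0.03 (95% interval -0.09 to 0.04, adjusted p = 0.98).

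HMOX1, heme oxygenase 1 (chromosome 22, 35380361 to 35394214, plus strand), was the least abundant of the genes, with 71 to 118 counts per library. Its lowest, median and highest levels were 7.42, 9.05 and 10.5 CPM with the biosimilar, 8.49, 9.504 and 10.7 CPM with Herceptin and 8.45, 10.0 and 10.9 CPM in control. The groups lay over each other. The log2 difference from control was -0.11 with the biosimilar (95% interval -0.27 to 0.04, adjusted p = 0.241) and -0.04 with Herceptin (95% interval -0.19 to 0.11, adjusted p = 0.708), and changes within these intervals are compatible with the data. The antibodies differed by -0.07 (95% interval -0.23 to 0.08, adjusted p = 0.98).

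SOD2 (chromosome 6, 159669057 to 159745186, minus strand) fell a little with both antibodies. In 66.7% of the libraries its expected counts were fractional, and its values are uncertain for the same reason as those of NQO1. Its lowest, median and highest levels were 137, 142 and 145 CPM with the biosimilar, 126, 140 and 143 CPM with Herceptin and 141, 152 and 156 CPM in control. Each antibody group overlapped with the lowest control library. The log2 fold change was -0.09 with the biosimilar (SE 0.0286, adjusted p = 0.00632) and -0.12 with Herceptin (SE 0.0284, adjusted p = 4.64e-04), and the antibodies differed by 0.03 (95% interval -0.03 to 0.09, adjusted p = 0.978).

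Short transcripts as a class were lower with the antibodies, and the levels of TXN and NQO1 moved with them. TXN is the shortest of the 10 transcripts. Over the 735 genes of at most 1000 bases and at least 10 CPM, the mean log2 CPM was 5.90 ± 0.078 with the biosimilar, 5.95 ± 0.037 with Herceptin and 6.05 ± 0.054 in control (SD, n = 8 libraries each). Within groups, over the 24 libraries with each group's mean taken off, TXN followed that mean with r = 0.819 and rho = 0.794, and r was 0.818 without the 2 farthest libraries. NQO1 followed it with r = 0.751 and rho = 0.709, and r was 0.691 without these 2 libraries. For TXNRD1 r was 0.0662 and rho 0.193, but r was 0.429 without biosimilar replicate 6, so that the low value rests on that library. For GCLM r was -0.121. For NFE2L2, which rose where the short genes were lower, r was 0.387 and rho 0.349, and its log2 fold change with the short-gene covariate was 0.35 with the biosimilar and 0.27 with Herceptin. These correlations share the libraries and their scaling and are descriptions.

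With the mean of the short genes as a covariate, a choice made after seeing the data, the biosimilar moved 4 of the 10 genes in place of 8. NFE2L2 and TXNRD1 rose and GCLM and TXN fell. KEAP1 (log2 fold change 0.11, adjusted p = 0.154), NQO1 (-0.0048, adjusted p = 0.944), SRXN1 (-0.11, adjusted p = 0.0527) and SOD2 (-0.08, adjusted p = 0.159) no longer passed. The estimates of KEAP1 and SRXN1 without the covariate were close to these, at 0.13 and -0.11. With Herceptin 7 of the 10 passed, beside 5137 of all genes in place of 6283, and NQO1 did not (-0.02, adjusted p = 0.653). TXN kept a smaller fall, by 0.13 with the biosimilar (adjusted p = 0.0324) and by 0.12 with Herceptin (adjusted p = 0.0148). The covariate itself differs between the groups, so that a change in short transcripts as a class and a change in these genes cannot be told apart by this fit.

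**Figure D4:**
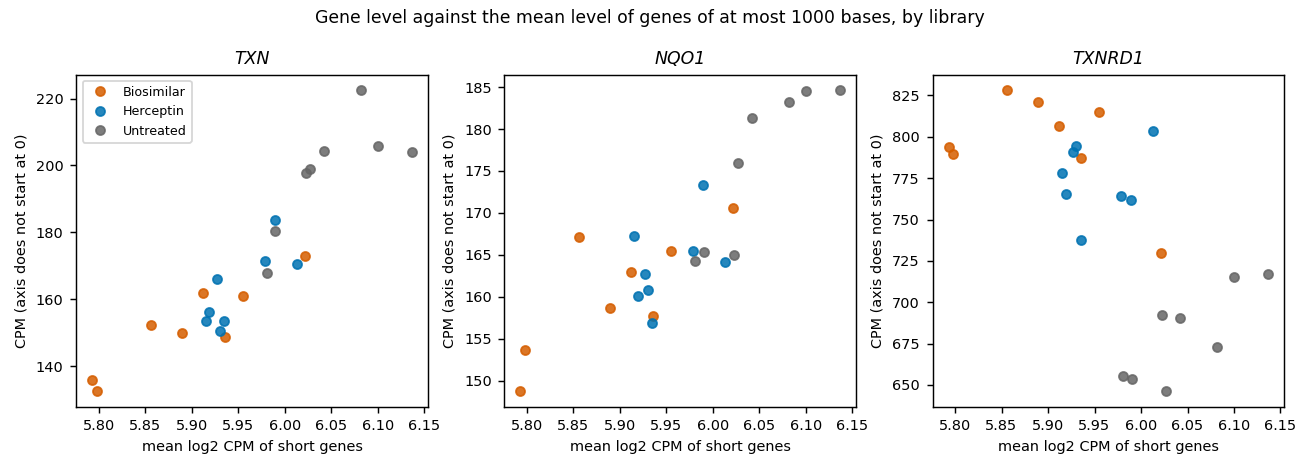
Level of TXN, NQO1 and TXNRD1 in CPM (vertical axes, which do not start at 0) against the mean log2 CPM of 735 short genes (horizontal axis), 1 point per library of the biosimilar, Herceptin and control (untreated) groups. TXN and NQO1 follow the short genes within groups (r = 0.819 and 0.751 over 24 libraries), and the TXNRD1 point of 729.7 CPM is biosimilar replicate 6.

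Within groups the 10 genes were also compared with each other. Of the 45 pairs, 33 had a correlation above 0 over the 24 libraries with each group's mean taken off, and the median was 0.166. The median correlation of each of the 10 with the genes at large lay between -0.0136 (TXN) and 0.078 (TXNRD1). The 4 pairs above 0.5 were NQO1 with TXN (0.822), NFE2L2 with NQO1 (0.705), NFE2L2 with TXN (0.518) and TXNRD1 with SOD2 (0.517). The lowest value was that of NFE2L2 with KEAP1, at -0.387. TXN, NQO1 and NFE2L2 each also followed the mean of the short genes within groups (r = 0.819, 0.751 and 0.387). The part of the short genes in the pairs among them was not tested. By the same measure over 6637 or 6638 genes with a symbol, at least 10 CPM and whole counts in most libraries, the genes most like TXN were COX7B (0.925), HINT1 (0.923) and RPL34 (0.922), and those most like NQO1 were MRPL13 (0.881), PTTG1 (0.878) and CCT3 (0.864). NFE2L2 was most like BUB3 (0.833), ARFIP1 (0.829) and PRDX3 (0.808), and TXNRD1 most like CHSY1 (0.799), FBXO28 (0.788) and BUB1B (0.766). The genes most like KEAP1 were VARS (0.776), THOP1 (0.755) and PRKCSH (0.729), and those most like SOD2 were ACADSB (0.76), C9orf40 (0.722) and STEAP4 (0.662). GCLM was most like SLC38A2 (0.736), ALCAM (0.725) and PIGG (0.685), and HMOX1 most like DUSP14 (0.74), DTD1 (0.699) and KCTD5 (0.698). GCLC and SRXN1 had the weakest likenesses, with a highest value of 0.645 for ESRP1 and 0.649 for GSPT1.

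The wider antioxidant lists also changed in both directions, with a few larger changes outside the 10 genes. Without the short-gene covariate, 23.4% of all genes were called higher and 24.6% lower with the biosimilar, and 22.7% and 23.8% with Herceptin. The calls of each list below in that fit stand beside these shares. With the covariate, 2060 of all genes were called higher and 2109 lower with the biosimilar, in place of 3162 and 3333. For Herceptin the numbers were 2543 and 2594, in place of 3068 and 3215. List counts with the covariate stand beside these smaller numbers. Of 15 regulators of NRF2 and its partners, the 10 genes' NFE2L2 and KEAP1 included, 9 rose and 1 fell with each antibody. The median log2 fold change was 0.11 with the biosimilar and 0.10 with Herceptin, against -0.0025 and -5e-04 over all genes. MAFF, a small MAF partner of NRF2, averaged 23.6 ± 2.64 CPM with the biosimilar, 24.1 ± 1.59 CPM with Herceptin and 17.7 ± 1.05 CPM in control (log2 fold change 0.42 and 0.45, adjusted p = 2.52e-07 and 3.47e-08). BACH1, a repressor at the same elements, rose by 0.25 and 0.26, and NFE2L1, a relative of NRF2, by 0.25 and 0.28 on the log2 scale with the biosimilar and Herceptin. SQSTM1, the autophagy receptor that binds KEAP1, rose by 0.20 and 0.24, but its counts were not whole in any library and are uncertain. The gene that fell was RBX1, the RING subunit of the ligase, named after its values were seen (48.3 CPM with the biosimilar, 49.6 CPM with Herceptin and 62.2 CPM in control). With the short-gene covariate 7 rose and 0 fell with the biosimilar, where RBX1 no longer passed (adjusted p = 0.0571), and 8 rose and 1 fell with Herceptin.

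Of the 23 glutathione genes tested, 5 rose and 10 fell with the biosimilar and 6 rose and 9 fell with Herceptin, and the median log2 fold change was -0.08 and -0.05. This balance turned with the short-gene covariate, under which 10 rose and 7 fell with the biosimilar and 9 rose and 6 fell with Herceptin. The mean of the list was above 0, at 0.04 and 0.07, through the large rise of GPX3, an extracellular glutathione peroxidase, and CHAC1, which breaks glutathione down. GPX3 averaged 144 ± 8.88 CPM with the biosimilar, 143 ± 8.73 CPM with Herceptin and 51.7 ± 2.6 CPM in control (log2 fold change 1.47 and 1.46, SE 0.0406 and 0.0404, adjusted p = 5.64e-28 and 6.1e-28). CHAC1 averaged 9.28 ± 1.25 CPM with the biosimilar, 10.3 ± 0.913 CPM with Herceptin and 4.25 ± 0.579 CPM in control (log2 fold change 1.13 and 1.27, adjusted p = 7.84e-13 and 9.94e-15). Both changes were larger than those of the 10 genes. GLO1, which detoxifies methylglyoxal, fell by 0.28 and 0.29, and the transferase GSTK1 rose by 0.27 and 0.22, with the biosimilar and Herceptin. With the covariate they still passed, at -0.14 and -0.20 for GLO1 and 0.42 and 0.32 for GSTK1.

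Of the 25 thioredoxin and peroxiredoxin genes tested, 4 rose and 12 fell with the biosimilar and 5 rose and 10 fell with Herceptin, with a median of -0.11 and -0.13. With the short-gene covariate the counts were 4 and 6 for the biosimilar and 4 and 7 for Herceptin. TXNIP, the protein that binds and inhibits thioredoxin, averaged 153 ± 7.33 CPM with the biosimilar, 151 ± 7.25 CPM with Herceptin and 81.7 ± 4.29 CPM in control (log2 fold change 0.90 and 0.89, adjusted p = 7.33e-23 and 9.08e-23). TXN2, the mitochondrial thioredoxin, fell by 0.38 and 0.30, GLRX3 fell by 0.32 and 0.32, and the peroxiredoxin PRDX4 fell by 0.26 and 0.22. With the covariate these falls were smaller and still passed, at -0.23 and -0.20 for TXN2, -0.19 and -0.24 for GLRX3 and -0.12 and -0.13 for PRDX4. TXNRD1 and TXNIP rose where TXN and TXN2 fell.

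Of the 7 superoxide and peroxide genes, 4 rose and 2 fell with the biosimilar and 3 rose and 2 fell with Herceptin, with a median of 0.12 and 0.10. With the short-gene covariate 3 rose and 0 fell with the biosimilar, and 4 rose and 1 fell with Herceptin. CAT, catalase, rose by 0.27 and 0.23, and CCS, the copper chaperone of SOD1, rose by 0.22 and 0.28. SOD1, the cytosolic superoxide dismutase, fell by 0.34 and 0.23. With the covariate the calls of SOD1 were lost with both antibodies (-0.13, adjusted p = 0.0748, and -0.09, adjusted p = 0.114), as was that of CCS with the biosimilar (0.15, adjusted p = 0.345). SOD3, the extracellular form, was low, at 2.68 ± 0.347 CPM with the biosimilar, 2.59 ± 0.44 CPM with Herceptin and 1.17 ± 0.46 CPM in control, and rose by 1.17 and 1.12.

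Of the 18 quinone and aldehyde genes tested, 4 rose and 6 fell with the biosimilar and 4 rose and 5 fell with Herceptin, with a median of 0.0025 and -0.05. The mean was -0.04 with the biosimilar, opposite in sign to the median. With the short-gene covariate 5 rose and 2 fell with the biosimilar, and 4 rose and 4 fell with Herceptin. ALDH3A2, a fatty aldehyde dehydrogenase, rose by 0.38 and 0.37 and the transporter ABCC5 by 0.23 and 0.22, while the transporter ABCC4 fell by 0.72 and 0.76. CBR1 fell by 0.25 and 0.20, with counts not whole in 54.2% of the libraries. The widely used NRF2 targets AKR1B10, AKR1C1, AKR1C2, AKR1C3 and ALDH3A1 did not pass the filter on low counts.

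Of the 12 heme and iron genes, 6 rose and 2 fell with the biosimilar and 7 rose and 2 fell with Herceptin, with a median of 0.09 and 0.11. The iron exporter SLC40A1 averaged 72.1 ± 2.53 CPM with the biosimilar, 69.8 ± 3.88 CPM with Herceptin and 44.1 ± 2.29 CPM in control (log2 fold change 0.71 and 0.66, adjusted p = 2.03e-18 and 1.29e-17). FTL, the ferritin light chain, rose by 0.31 and 0.37, NCOA4, the receptor for ferritin turnover, by 0.30 and 0.27, and BLVRA, which reduces the biliverdin that heme oxygenase makes, by 0.36 and 0.31. HMOX1 itself is in this list and did not pass.

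**Figure D5:**
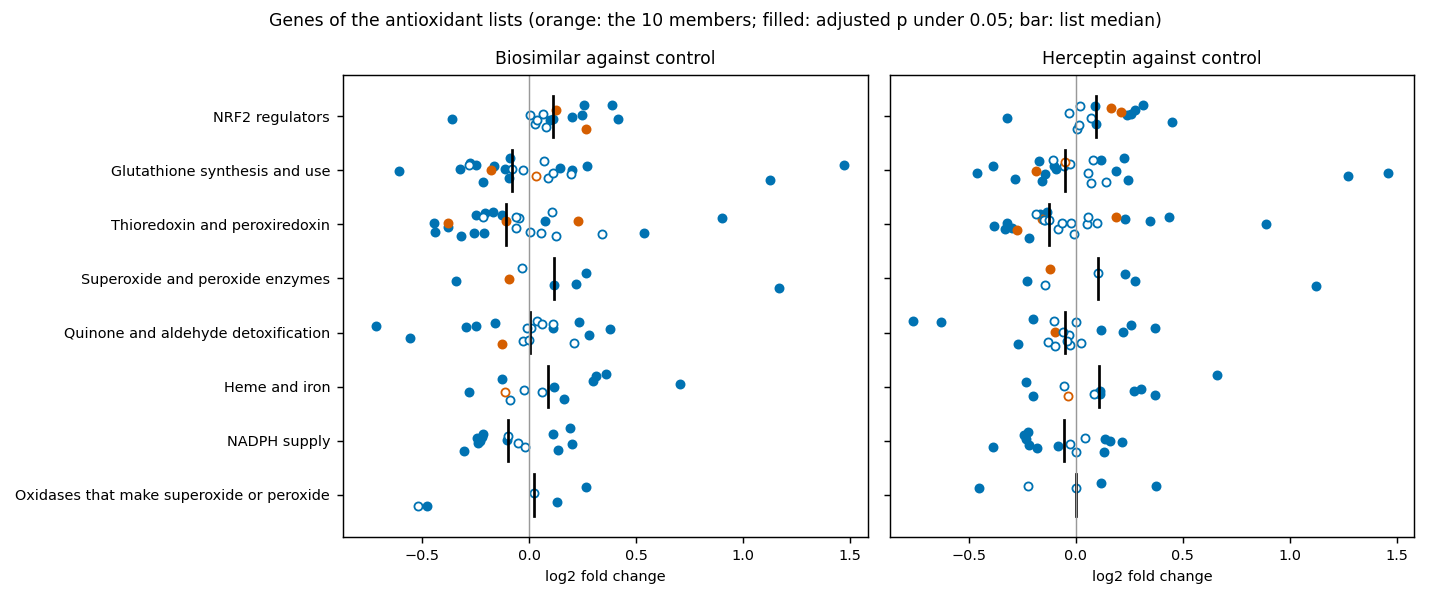
Log2 fold change of each tested gene of 8 antioxidant lists, for the biosimilar against control and Herceptin against control; orange points are the 10 genes, filled points passed the edgeR test and bars are list medians. GPX3 (1.47 and 1.46) lies farthest to the right, followed by SOD3 (1.17) and CHAC1 (1.13) with the biosimilar and by CHAC1 (1.27) and SOD3 (1.12) with Herceptin.

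Of the 14 genes of NADPH supply tested, 4 rose and 7 fell with each antibody, with a median of -0.10 with the biosimilar and -0.06 with Herceptin. ME1, the cytosolic malic enzyme, fell by 0.31 and 0.39, the transketolase TKT fell by 0.22 and 0.22, and MTHFD2 fell by 0.22 and 0.24 with counts not whole in 95.8% of the libraries. Most NADPH oxidase genes were too low to test. Of the 5 genes tested in a list of oxidases and genes that work with them, 2 rose and 1 fell with each antibody. Their median was 0.02 and -0.0012 and their mean -0.12 and -0.04. The endoplasmic oxidase ERO1A rose by 0.26 and 0.37, RAC1 rose by 0.13 and 0.11 with counts not whole in any library, ERO1B was not called, and CYBA, a subunit of the NADPH oxidases, fell by 0.48 and 0.45.

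Of the 15 NF-kB targets and regulators tested, 9 rose and 2 fell with the biosimilar and 10 rose and 1 fell with Herceptin, with a median of 0.23 and 0.33. TNIP1, a feedback inhibitor of NF-kB signalling, rose by 0.26 and 0.33, the chemokine gene CCL2 by 0.41 and 0.45 and the iron-siderophore binder LCN2 by 0.89 and 0.95. IRF1 rose by 0.42 and 0.49, with counts not whole in 75% of the libraries. NFKBIA, an inhibitor and classic target of NF-kB, fell by 0.15 with each antibody (adjusted p = 6.94e-04 and 6.15e-04), as did NFKBIE with the biosimilar, by 0.25 (adjusted p = 0.0021); both were named after their values were seen. With the short-gene covariate 7 of the list rose and 1 fell with the biosimilar, and 9 rose and 0 fell with Herceptin. In that edgeR fit NFKBIA no longer passed (adjusted p = 0.431 and 0.0718), nor did NFKBIE with the biosimilar (-0.17, adjusted p = 0.222). SOD2, named above as an NF-kB target, fell. In all of these lists 0 genes were called between the biosimilar and Herceptin in edgeR, as for the 722 genes with an unadjusted p under 0.05 in the whole table.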

How the data were processed

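The table gives expected counts per gene as deposited, in which RSEM splits reads that fit several genes. Per the submitters' processing notes, FastQC was used on the reads, STAR for alignment and RSEM for counting, with GRCh38.p12 as the build. The sources used here name neither the annotation release nor the strand setting. Values that were not whole (tolerance 0.001) made up 9.29% of the table. Rounding moved no library's total by more than 4.56e-04%. Libraries of a group had a biological coefficient of variation of 4.9% in common. In all 84 within-group pairs the libraries differed by more than sampling noise (chi-square per degree of freedom 1.50 to 7.30), so that none was taken for a library deposited again. This does not show that they were separate cultures.

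One edgeR model (version 4.0.16, with limma 3.58.1 in R 4.3.3) held all 24 libraries and 3 groups, with TMM factors, filterByExpr, robust quasi-likelihood fits and two-sided F tests. P-values were adjusted by Benjamini-Hochberg over 13536 genes. CPM used TMM-scaled totals, and levels per kilobase used the deposited effective lengths. Fold changes used a prior count of 0.125. Ratios were compared with exact two-sided permutation tests over libraries, adjusted over 9 tests. Gene positions are from GENCODE on GRCh38, and promoter windows are from RefSeq.

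Alternatives were DESeq2 1.42.0, limma-voom, other scaling, other filters, fits of 2 groups, a replicate block and leaving out each library. Same-numbered libraries deviated together (correlation over 0.1) in 3 of 8 pairs for the biosimilar with control and 5 of 8 for the other comparisons. Since not every pair did, the numbers were not taken to pair libraries. That rule does not show that same-numbered libraries were handled apart, and a batch shared by some of them was not tested. The 10 genes and all lists were chosen with earlier results of these data known. In each list up to 4 genes outside the 10 are named, those with the smallest p for Herceptin against control at a mean of at least 1 CPM. One gene that this rule takes is not reported here. RBX1, NFKBIA and NFKBIE were named after their values were seen. GGT1 had 2 tested rows and was left out of its list.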

Additional observations from a re-analysis of the deposited data

Results flagged for a closer look

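Of the 30 sets of 8 libraries (10 genes in 3 groups) 2 had a library that stood apart from its group by Dixon's criterion. Chance alone flags about 1 in 20 sets. TXNRD1 was at 729.7 CPM in biosimilar replicate 6, where the next library was at 787 CPM and the highest at 829 CPM. That library also had the highest TXN of its group, 173 CPM, and the largest deviation from its group over all genes (root mean square 0.141 on the log2 scale). Without it the log2 fold change of TXNRD1 with the biosimilar was 0.24 (edgeR adjusted p = 1.35e-10), against 0.23 with it. SOD2 was at 126.1 CPM in Herceptin replicate 1, where the next library was at 138 CPM and the highest at 143 CPM.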

How the results depend on the processing

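With either antibody against control, 8 of the 10 genes passed under every alternative but the short-gene covariate and with every library left out (8 to 8), and none of the 10 changed side or direction. Between the antibodies 0 of the 10 passed throughout (0 to 0). Over all genes, leaving out a library gave 6200 to 6657 calls with the biosimilar, 5997 to 6447 with Herceptin and 0 to 0 between the antibodies. DESeq2 called 8 genes between the antibodies, no filter on low counts 12 and the replicate block 14, none of them among the 10, against 0 in the reported fit. The replicate block, for numbers that did not meet the criterion of a correlation over 0.1 in every pair, gave 6735 calls with the biosimilar and 6584 with Herceptin, and it changed no other call among the 10 genes. As a hint from the data, the own number gave the best correlation for 1 of 8 libraries in the biosimilar and control comparison, 2 of 8 with Herceptin and 6 of 8 between the antibodies. The near-zero GCLM difference between the antibodies ranged from -0.0048 to 0.0171 as libraries were left out. It turned to -0.0014, -4e-04 and -0.003 without biosimilar replicates 2, 3 and 8, and to -0.0048 without Herceptin replicate 2.

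The short-gene covariate, added after seeing the data, cut the biosimilar's calls to 4 of the 10 genes and 4169 of all genes, against 5137 of all genes with Herceptin. It turned 4 uncalled values, HMOX1 with Herceptin (0.0027), GCLC with the biosimilar (-0.0116), and NQO1 (0.0156) and GCLM (-4e-04) between the antibodies. The cause was not tested. Depth limits HMOX1 most, at 71 to 118 counts, and shared reads limit NQO1 and SOD2.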
